A study of Mus musculus with 9 samples.

Results

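The genes described here encode 4 families of DNA-binding proteins: forkhead (Fox), SOX, T-box (Tbx) and GATA factors. They were found by symbol in the platform annotation, as Fox followed by a letter and a number, or Sox, Tbx or Gata followed by a number, among probe sets with exactly 1 gene symbol. Of the 67 genes that match, 9 (Foxa1, Foxc1, Foxc2, Foxd1, Sox7, Sox17, Sox18, Gata2 and Gata3) were left out by name, which leaves 58 of the 12393 genes on the array. They are 29 forkhead, 14 SOX, 11 T-box and 4 GATA genes, covered by 100 probe sets, and each is read from the probe set that is brightest on average over the 9 arrays. No measured difference between structures was used to choose them, but the 9 genes left out include several that differ most, so the members are not the whole families.

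The samples were 3 structures dissected by shape from kidneys of wild-type mouse embryos of strain 129. The embryos were at E14.5 (Theiler stage 22), of unknown sex and without any treatment. Renal vesicles are the earliest epithelial stage of a nephron, s-shaped bodies the later folded stage, and the collecting duct is the branching epithelium that will drain the nephrons. Each structure had 3 Affymetrix MOE430A arrays with 1 sample each. A renal vesicle or s-shaped body sample was a pool of 20 structures and the pool size of a collecting duct sample was given as 1, and all RNA went through 2 rounds of amplification. The labels call each such sample a biological replicate, without the number of embryos behind it. No promoter, reporter or cell sort defined the cells, so other cell types attached to a structure were part of its sample.

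Each family is defined by the domain with which its proteins bind DNA. Forkhead proteins use a winged helix, SOX proteins an HMG box that bends the DNA, T-box proteins a large domain first described in the gene Brachyury, and GATA proteins zinc fingers that read the letters GATA. Many of them fix the identity of a tissue in the embryo, and close relatives with the same DNA-binding domain often stand in for each other. In the mouse kidney Sox9 is known from the tips of the ureteric bud, Sox4 and Sox11 from nephron formation, Tbx18 from the smooth muscle of the ureter and Foxi1 from the acid-handling cells of the mature collecting duct.

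All levels below are log2 of the deposited intensity plus 26, after quantile normalization, and every difference is a log2 difference between the means of 3 arrays. The median of an array stood at 7.28 on this scale. A change is a Benjamini-Hochberg adjusted p under 0.05 in limma over all 7998 genes tested. Levels of different genes come from different probes and were not compared with each other. In whole structures, fewer cells of a type and less RNA per cell cannot be told apart. A rise or fall between structures is thus a difference of whole samples, not a change followed within a cell type.

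The labels were checked against marker genes, given as the summed deposited intensity of each list. Collecting duct markers (11 genes) summed to 36440 to 49658 in the collecting duct, 2587 to 13769 in the renal vesicle and 1157 to 1210 in the s-shaped body. Of the 8 tested, 4 were lower in the vesicle than in the duct, namely the keratins Krt8, Krt18 and Krt19 and the cadherin Cdh1. The 2 higher ones were Calb1 (5.01, SE 0.85) and Wnt11 (1.55, SE 0.30). Hoxb7 and Aqp2 were not called, and Ret, Wnt9b and Tfap2b were too dim to test. The duct label thus rests on keratins and Cdh1 more than on the rest of the list. Without Calb1, a choice made after seeing the data, the sums were 36386 to 49586 in the duct, 2246 to 4445 in the vesicle and 1031 to 1081 in the s-shaped body. Nephron epithelium markers (9 genes) summed to 15189 to 16802 in the renal vesicle and to 2832 to 3327 in the s-shaped body, against 1728 to 2517 in the duct. All 8 tested were lower in the s-shaped body than in the vesicle, and 5 were higher and 1 lower than in the duct. Podocyte markers (6 genes) reached 46771 to 54788 in the s-shaped body, where Cdh1, the cadherin of epithelia, was at 6.71, 5.96 and 5.85 and thus below the array median. The s-shaped body arrays also carried endothelial markers (12 genes, 26273 to 33284, against 754 to 1068 in the duct), stromal and mural markers (13 genes, 22391 to 29028 against 822 to 1164) and erythroid markers (8 genes, 21315 to 23983 against 342 to 2699). The summed urothelial markers (7 genes) were highest in the collecting duct, at 3000 to 4557 against 429 to 649 in the other arrays. Trp63 made up most of the duct sum (levels 10.87 to 11.55). Of the 4 tested, Trp63, Upk3a and Upk3b were lower in both nephron structures than in the duct, and Upk2 was not called. Upk1a, Krt5 and Krt15 were too dim to test. Immediate-early and stress genes (10 genes) summed to 51433 to 77990 in the duct and 15714 to 24302 in the nephron structures. The 3'/5' ratio of the Gapdh control probes, a sign of RNA length, was 20.0 to 32.4 for s-shaped body arrays and 11.6 to 18.6 for the others. Whether these differences play a part in the results below was not tested.

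Most members were dim. Only 20 of the 58 were above the median of their own array on at least 3 arrays and were tested. These are 10 forkhead, 6 SOX, 2 T-box and 2 GATA genes, 10 of which were above it on all 9 arrays. Foxq1 and Gata5 passed through 1 structure alone, so a difference was built into their selection. Of the 38 that did not pass, 29 were below the median on every array. Since dim genes are tested less fairly by such a filter, the fit was also run on all 12393 genes without it.

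The calls of members are given beside the shares of all genes, and nothing about the families is read from them. In the renal vesicle 3 members were higher (Sox11, Foxn2 and Foxk2) and 6 lower (Tbx3, Tbx2, Foxq1, Foxp1, Foxo1 and Sox4) of the 20 tested. Of all genes tested 31.5% were called in that comparison, 15.6% higher and 15.9% lower. Without the filter 2 of 58 were higher (3.45%, against 9.68% of all genes) and 9 lower (15.5%, against 10.3%). In the s-shaped body 3 of 20 were higher (Gata5, Foxn2 and Sox13) and 7 lower (Tbx3, Foxq1, Sox11, Sox9, Foxp1, Gata4 and Sox4), against 32.8% of all genes called, 16.9% higher and 15.9% lower. Without the filter the counts were 3 higher (5.17%, against 11.6%) and 8 lower (13.8%, against 10.8%). Both comparisons use the same collecting duct arrays, so a gene that stands high or low there enters both. Between the nephron structures themselves 4 members were higher in the s-shaped body (Tbx2, Gata5, Sox13 and Foxo1) and 1 was lower (Sox11), against 36.3% of all genes called, 18.5% higher and 17.8% lower. Without the filter 5 were higher (8.62%, against 12.5%) and 1 lower (1.72%, against 11.5%).

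The median difference of the 20 tested members was -0.19 for renal vesicle against collecting duct, -0.15 for s-shaped body against collecting duct and 0.03 for s-shaped body against renal vesicle, where the medians of all genes were 0.01, -0.03 and -0.03. Arrays of the compared structures did not overlap at all for 11 of the 20 members in renal vesicle against duct (43.3% of all genes), 14 in s-shaped body against duct (43.9%) and 9 between the nephron structures (52.9%). In all, 13 of the 20 changed in at least 1 comparison, where 54.2% of all genes tested did. The share of tested members called was 45% and 50% against the duct and 25% between the nephron structures. Nothing is read from these shares, since the filter favours genes that are high in some structure.

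**Figure D1:**
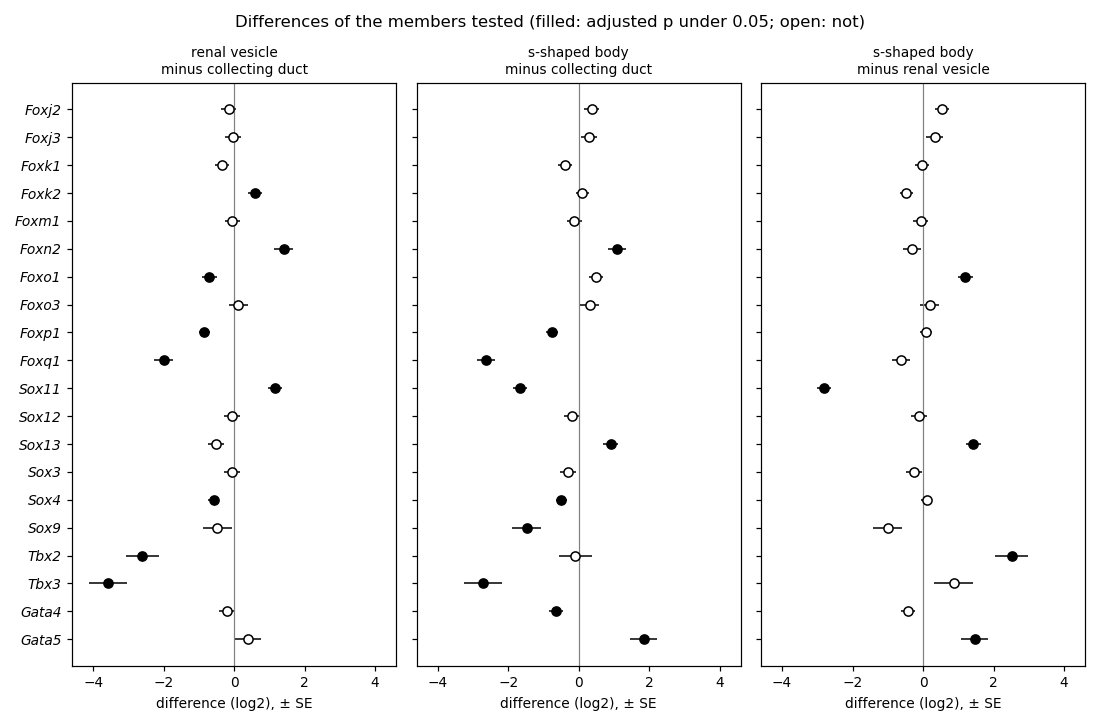
Log2 difference of each tested member in the 3 comparisons (x axis, log2 units; points are estimates from 3 arrays per structure, bars are standard errors; filled points have an adjusted p under 0.05). Tbx3 and Foxq1 lie far to the left in both comparisons with the collecting duct, while Sox11 lies to the right in the first panel and to the left in the other two.

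Foxq1, a forkhead gene of epithelia known from hair and stomach lining in the mouse, was highest in the collecting duct. Its levels were 8.37, 8.94 and 9.13 in the duct, 6.67, 6.85 and 6.90 in the renal vesicle and 5.70, 6.42 and 6.42 in the s-shaped body. All duct arrays lay above all nephron arrays. The nephron arrays lay below their array medians, so the gene passed the filter through the duct alone and its high level there was part of its selection. The gene was 4.01-fold lower in the vesicle (log2 difference -2.00, SE 0.26, adjusted p = 0.00011) and 6.20-fold lower in the s-shaped body (-2.63, SE 0.26, adjusted p = 6.5e-06). In the limma fit without the filter the adjusted p were 0.00037 and 3.3e-05. The intensities behind the lower levels, 24.3 to 64.3 in the s-shaped body, are near the pseudocount of 26, and without detection calls a dim probe set cannot be told from background. The difference in the s-shaped body ran from -3.01 with a pseudocount of 8 to -2.13 with 64, so the fold is approximate. Its neighbour in the genome was dim. Foxq1, Foxf2 and Foxc1 follow each other on chromosome 13 with 0 other protein-coding genes between them. Foxf2, a gene of gut and lung mesenchyme, stayed between 5.15 and 6.34 on all arrays and was not tested.

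Foxp1, a forkhead repressor of blood and heart development, was also lower in both nephron structures. It stood at 11.37, 11.16 and 11.36 in the duct, at 10.27, 10.31 and 10.75 in the renal vesicle and at 10.49, 10.61 and 10.50 in the s-shaped body, without overlap between duct and nephron. The difference was -0.85 (SE 0.17, adjusted p = 0.0022) in the renal vesicle and -0.76 (SE 0.17, adjusted p = 0.0039) in the s-shaped body, about the same in each, and the nephron structures did not differ by more than the test resolves (0.09, SE 0.17, adjusted p = 0.72). Foxp1 has 6 probe sets that passed the filter. Each of them was lower in both structures, from -1.69 to -0.40 in the renal vesicle and from -1.57 to -0.26 in the s-shaped body. Tested one by one over all 11597 such probe sets, 5 of the 6 passed in the first and 4 of the 6 in the second. The probe sets shared the direction and differed in size.

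Foxn2 ran the other way, with more transcript in the nephron. Its levels were 9.26, 9.13 and 9.30 in the renal vesicle and 9.27, 8.92 and 8.57 in the s-shaped body, all above the 8.18, 8.15 and 7.16 of the duct. The third duct array was the lowest of the 9. Renal vesicles had 2.64 times the duct level (1.40, SE 0.27, adjusted p = 0.0017) and s-shaped bodies 2.13 times (1.09, SE 0.27, adjusted p = 0.0077), and it has 1 probe set.

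Foxo1 was higher in the s-shaped body than in the renal vesicle. FOXO proteins switch on genes of quiescence, stress defence and growth arrest and are kept out of the nucleus when insulin or growth factors activate AKT. Foxo1 stood at 8.27, 8.77 and 8.88 in the renal vesicle, 9.93, 9.94 and 9.65 in the s-shaped body and 9.07, 9.50 and 9.47 in the duct, so the vesicle was lowest and no array of it reached another structure. The rise from vesicle to s-shaped body was 2.30-fold (1.20, SE 0.20, adjusted p = 0.00068). All 3 probe sets past the filter showed it, at 1.20, 0.74 and 0.57, each with an adjusted p under 0.05. The lower level in the vesicle than in the duct (-0.70, SE 0.20, adjusted p = 0.020) lost its call without the first renal vesicle array (-0.52, adjusted p = 0.093) and, separately, without the second duct array (-0.63, adjusted p = 0.078). Foxo3 lay between 9.93 and 10.93 on all arrays and was not called in any comparison, with differences of 0.12, 0.31 and 0.20 (SE 0.27). Foxo4 stayed under the array medians, at 5.99 to 7.22.

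Genes that regulate FOXO proteins or are known as their targets, a list written from textbook knowledge, were called between the nephron structures about as often as all genes. Of 17 tested, the s-shaped body had 6 higher and 1 lower than the renal vesicle (median 0.32, against -0.03 for all genes), where 36.3% of all genes were called, and the other 10 did not pass. Gadd45a, a DNA damage and growth arrest gene, was higher by 2.98 (SE 0.33). Sgk1, a kinase that phosphorylates FOXO proteins, was higher by 3.46 (SE 0.27), and Txnip, an inhibitor of thioredoxin, by 1.91 (SE 0.30). Sirt1, a deacetylase that acts on FOXO proteins, was the 1 that was lower (-0.75, SE 0.20), named for that after its value was seen. Renal vesicle against collecting duct gave 4 higher and 4 lower (median -0.08, 31.5% of all genes called), and s-shaped body against collecting duct 6 and 3 (median 0.34, 32.8%). Klf2 (1.48, SE 0.22) is also known from endothelium, and all 10 endothelial markers tested were higher in the s-shaped body than in the vesicle.

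Foxm1, which drives the genes of mitosis in dividing cells, was called in none of the comparisons. It stood at 8.68, 8.81 and 8.92 in the renal vesicle, 8.77, 8.51 and 8.94 in the s-shaped body and 8.54, 8.69 and 9.34 in the duct, with overlap between all groups. The differences were -0.06, -0.12 and -0.06 (SE 0.22, adjusted p 0.87, 0.72 and 0.85). A dimmer probe set of the gene gave -0.72 (SE 0.21, adjusted p = 0.020) for s-shaped body against renal vesicle, so the difference between these structures depends on the probe set. Of 15 tested genes on a list of FOXM1 targets, 10 were higher and 1 lower in the vesicle than in the duct (median 0.77), where 31.5% of all genes were called. Between s-shaped body and vesicle 0 were higher and 10 lower (median -0.67), where 36.3% were called. Birc5 and Cdk1 passed in no comparison. Examples are Skp2, which targets cell cycle inhibitors for destruction (1.59, SE 0.15, then -0.96, SE 0.15), and Kif20a, a kinesin of cell division (1.39, SE 0.20, then -1.09, SE 0.20). The lower gene was Cdc25b, a phosphatase that starts mitosis (-0.56, SE 0.16). S-shaped body against duct gave 1 higher, Skp2 (0.63, SE 0.15), and 1 lower, the kinetochore gene Cenpf (-0.53, SE 0.16), with a median of 0.11 and 32.8% of all genes called.

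**Figure D2:**
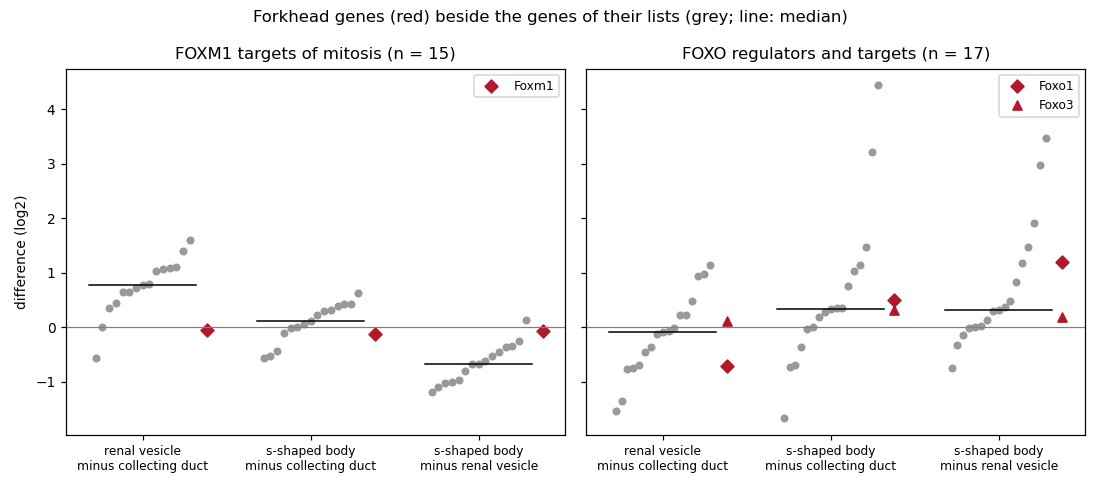
Log2 differences (y axis) of the 15 tested FOXM1 targets and the 17 tested FOXO regulators and targets (grey points, black line at the median) beside Foxm1, Foxo1 and Foxo3 (red) in the 3 comparisons. By the probe set used, Foxm1 stays near 0 in each panel position while the median of its list is 0.77, 0.11 and -0.67. A dimmer Foxm1 probe set past the filter, not drawn here, gave 0.28, -0.44 and -0.72.

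Foxk2, which with Foxk1 holds back autophagy genes, gave a weak call. It stood at 9.66, 9.69 and 9.90 in the renal vesicle, 8.94, 9.39 and 9.50 in the s-shaped body and 9.28, 8.90 and 9.33 in the duct, and the vesicle arrays lay above those of both other structures. The difference from the duct was 0.58 (SE 0.20, adjusted p = 0.040). The other probe sets of the gene gave -0.065 and -0.050. The call was lost without any renal vesicle array: 0.62 with the first removed (adjusted p = 0.069), 0.61 with the second (0.077) and 0.50 with the third (0.11). It was also lost without the second array of the s-shaped body (0.58, adjusted p = 0.057) or of the duct (0.44, adjusted p = 0.16). Foxk1 was not called (-0.35, -0.38 and -0.04, SE 0.20), although its duct arrays (7.36, 7.37 and 7.56) lay above all nephron arrays (6.81 to 7.30).

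Foxj3 and Foxj2 were the remaining tested forkhead genes and were called in none of the comparisons. Foxj3 ran from 11.49 to 12.53 over all arrays, and its differences were -0.03, 0.29 and 0.33 (SE 0.23). Foxj2 was at 8.40, 8.44 and 8.17 in the s-shaped body and 7.59, 7.59 and 8.22 in the renal vesicle. Renal vesicle replicate 3 fell among the s-shaped body arrays, and the difference of 0.53 (SE 0.21, adjusted p = 0.061) passed without it (0.74, adjusted p = 0.011) and without collecting duct replicate 3 (0.54, adjusted p = 0.048).

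The other 19 forkhead members lay between 4.85 and 7.64. They include Foxi1 of intercalated cells (5.01 to 6.20), Foxj1 of motile cilia (5.33 to 6.90), Foxp3 of regulatory T cells (6.14 to 6.98), Foxn1 of thymus epithelium (6.47 to 7.01) and the neural crest gene Foxd3 (4.92 to 5.55). Foxa2, the endoderm relative of the omitted Foxa1, was at 6.95, 7.42 and 7.64 in the duct and 6.73 to 7.08 in the nephron. Without the filter the only call among the 19 was Foxh1, a partner of SMAD proteins in Nodal signalling. It was higher in the s-shaped body (6.70, 7.63 and 7.07) than in the renal vesicle (6.02, 6.0 and 6.23), by 1.05 (SE 0.28, adjusted p = 0.019). Its dimmer probe sets gave -0.35 and 0.22. The rest were Foxa3, Foxb1, Foxb2, Foxd2, Foxd4, Foxe3, Foxf1, Foxf2, Foxl1, Foxn4, Foxo4 and Foxp2.

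**Figure D3:**
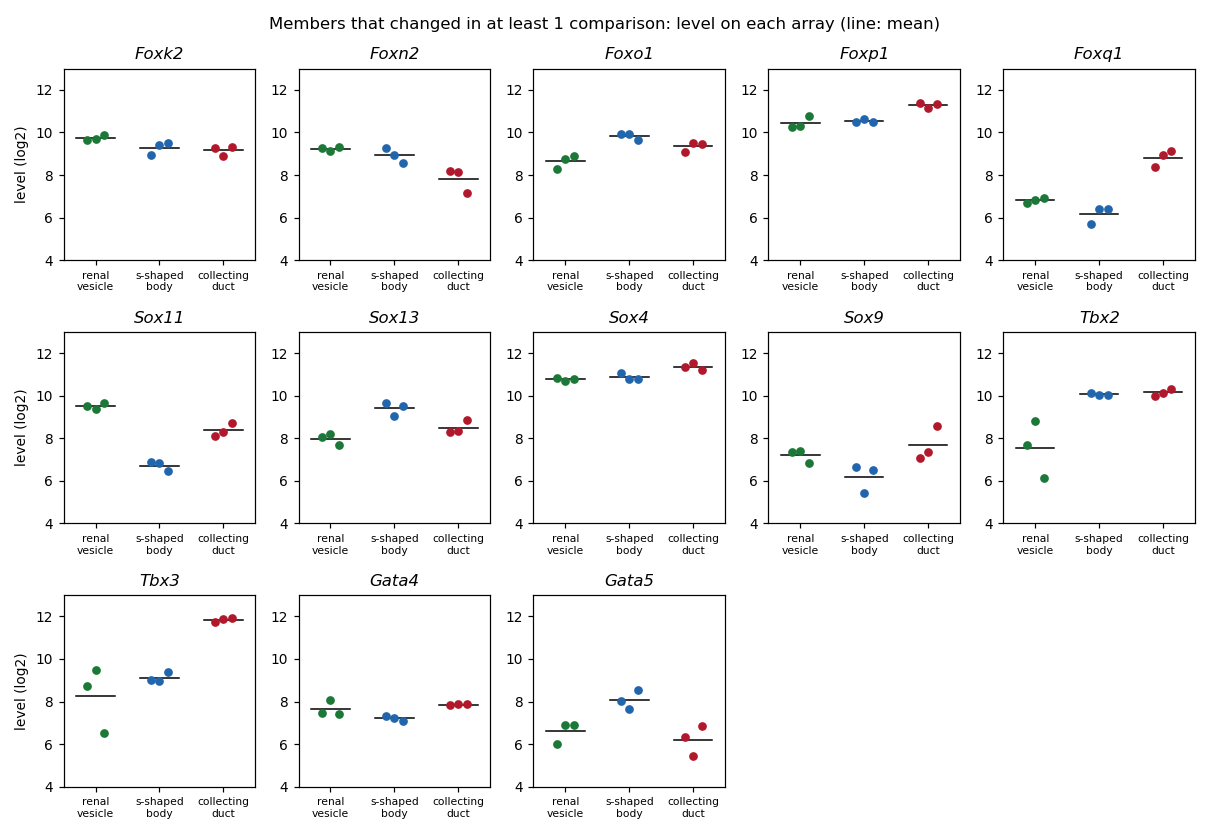
Level (y axis, log2) of the 13 members that changed in at least 1 comparison, with 1 point per array and a line at the mean of each structure (n = 3). Sox11 falls from 9.38 to 9.66 in the renal vesicle to 6.46 to 6.87 in the s-shaped body, and Tbx2 and Tbx3 spread widely within the renal vesicle.

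Sox11 showed the largest difference between the nephron structures among the tested members. With Sox4 and Sox12 it forms the SOXC group, activators of embryonic progenitors that overlap in function in the mouse. Sox11 stood at 9.52, 9.38 and 9.66 in the renal vesicle, 6.87, 6.82 and 6.46 in the s-shaped body and 8.11, 8.32 and 8.70 in the duct, so the 3 structures formed 3 separate bands with the duct in the middle. It was 2.21-fold higher in the vesicle than in the duct (1.14, SE 0.20, adjusted p = 0.00089). It was 3.16-fold lower in the s-shaped body than in the duct (-1.66, SE 0.20, adjusted p = 3.3e-05) and 6.97-fold lower than in the vesicle (-2.80, SE 0.20, adjusted p = 9.5e-07). It is the only member called in opposite directions against the duct, and it has 1 probe set.

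Between the nephron structures its group members Sox4 and Sox12 differed by 0.10 (SE 0.15) and -0.13 (SE 0.23), and neither was called. Sox4 was at 10.85, 10.70 and 10.78 in the renal vesicle, 11.06, 10.81 and 10.76 in the s-shaped body and 11.33, 11.54 and 11.22 in the duct, with the duct on top. The differences from the duct were -0.59 (SE 0.15, adjusted p = 0.012) and -0.49 (SE 0.15, adjusted p = 0.028). Of 4 probe sets past the filter 3 were below 0 in both comparisons, and the remaining one gave 0.215 and 0.454. Tested one by one, only the probe set used was called in either comparison. Leaving out collecting duct replicate 2 ended both calls (-0.50, adjusted p = 0.060, and -0.40, adjusted p = 0.12). The call in the vesicle was also lost without the second vesicle array (-0.55, adjusted p = 0.053), and that in the s-shaped body without its own replicate 2 (-0.45) or replicate 3 (-0.43), both at an adjusted p of 0.096. With median centring of the arrays in place of quantile normalization neither passed (-0.39, adjusted p = 0.11, and -0.48, adjusted p = 0.056). Sox12 was not called (-0.05, -0.18 and -0.13, SE 0.23), with all 9 arrays between 8.92 and 9.77.

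Of the SOXD group, which lacks an activation domain of its own, Sox13 rose in the s-shaped body. Its levels there were 9.66, 9.06 and 9.51, above the 8.05, 8.20 and 7.69 of the renal vesicle and the 8.31, 8.36 and 8.84 of the duct. It was 2.69-fold higher than in the vesicle (1.43, SE 0.22, adjusted p = 0.00034) and 1.88-fold higher than in the duct (0.91, SE 0.22, adjusted p = 0.0070). Sox6 did not pass the filter, yet it was at 7.27, 8.07 and 8.56 in the duct against 6.05 to 6.39 in the vesicle and 6.45 to 6.88 in the s-shaped body. Without the filter it was lower in both nephron structures (-1.77, SE 0.31, adjusted p = 0.0020, and -1.23, adjusted p = 0.014), and a dimmer probe set gave -0.71 and -0.17. Sox5 lay between 6.06 and 7.09 and was not called.

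Sox9, which controls cartilage, testis and ureteric tip genes, was lowest in the s-shaped body. The brighter of its probe sets read 7.36, 7.38 and 6.83 in the renal vesicle, 6.64, 5.44 and 6.49 in the s-shaped body and 7.09, 7.35 and 8.57 in the duct. The s-shaped body arrays lay below all others, while vesicle and duct overlapped. The difference from the duct was -1.48 (SE 0.40, adjusted p = 0.014). From the vesicle it was 2.01-fold lower (SE 0.40 on the log2 scale, adjusted p = 0.071), which did not pass. The first lost its call without s-shaped body replicate 2 (-1.10, adjusted p = 0.063), the lowest array, and the comparison with the vesicle passed without collecting duct replicate 3 (adjusted p = 0.026). The other probe set, dimmer on average, gave -2.79 (SE 0.31, adjusted p = 1.9e-05) against the duct and -1.48 (SE 0.31, adjusted p = 0.0029) against the vesicle. Its replicates lay closer together than those of the brighter one in the duct (7.7 to 7.8) and s-shaped body (4.8 to 5.2). In the vesicle they lay further apart (6.0 to 7.1). Its s-shaped body levels are near the floor set by the pseudocount, so their closeness is no sign of precision and the differences are approximate. By that probe set the vesicle too was lower than the duct (-1.32, SE 0.31, adjusted p = 0.0068), so a graded order of duct, vesicle and s-shaped body rests on the choice of probe set. Sox10, its neural crest relative, lay between 6.73 and 7.63 in all structures.

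Among known SOX9 targets and effectors of RET, the receptor of the ureteric tip, only 2 of the 14 on the array were bright enough to test. Spry1, a feedback inhibitor of RET, was lower in the s-shaped body than in the duct (-1.32, SE 0.23) and than in the vesicle (-1.21, SE 0.23). The cartilage collagen gene Col9a1 was lower than in the duct (-0.50, SE 0.18, adjusted p = 0.047).

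The SOXB genes of neural progenitors were dim. Sox3 was tested and not called (-0.06, -0.31 and -0.25, SE 0.23), with levels from 6.85 to 7.59. Sox2 was at 6.05, 5.55 and 5.94 in the duct against 4.75 to 5.30 in the nephron, and without the filter it was called lower in both structures (-0.75, adjusted p = 0.029, and -0.78, adjusted p = 0.021). These levels lie far under the array median. Sox1, Sox14 and Sox21, and Sox15 of another group, lay between 4.84 and 7.12 and were not called.

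HMG-box genes without a SOX name gave 2 higher and 1 lower of 12 tested in renal vesicle against duct, 1 and 1 in s-shaped body against duct, and 1 and 3 in s-shaped body against renal vesicle (medians 0.10, -0.10 and -0.24). Of all genes 31.5%, 32.8% and 36.3% were called in these comparisons, so the list was called no more often than the array. Hmgb2, a chromatin protein of dividing cells, was higher in the vesicle than in the duct (1.65, SE 0.30) and lower in the s-shaped body than in the vesicle (-1.54, SE 0.30). Hmgb3, its close relative, was lower in the s-shaped body than in either (-0.92 and -1.42, SE 0.24). Tcf7l1, a repressor in Wnt signalling, was lower in the vesicle than in the duct (-1.09, SE 0.27).

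**Figure D4:**
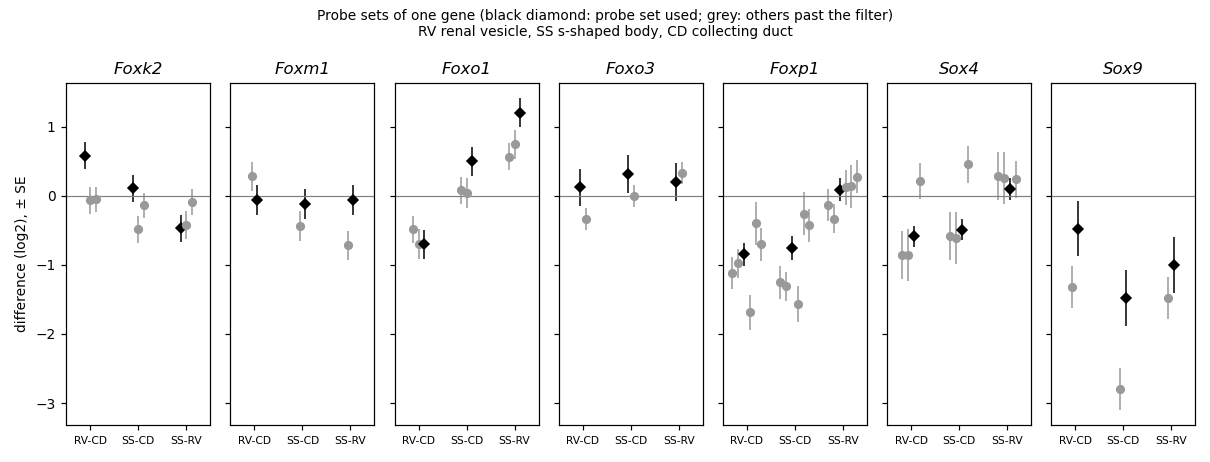
Log2 difference with its standard error (y axis) for every probe set past the filter of the 7 members that have several, in the 3 comparisons; black diamonds are the probe sets used, grey points the others. All 6 Foxp1 probe sets lie below 0 against the duct, whereas those of Foxk2 and Sox4 lie on both sides of 0 in renal vesicle against duct.

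The T-box genes Tbx2 and Tbx3, closely related repressors that act in ureter, bladder, heart and limb, were the only T-box genes tested. Tbx3 stood at 11.73, 11.89 and 11.90 in the duct, at 9.0, 8.96 and 9.39 in the s-shaped body and at 8.73, 9.50 and 6.52 in the renal vesicle. The duct lay above every nephron array, and renal vesicle replicate 3 lay well below its group. Tbx3 was lower in the vesicle by 3.59 on the log2 scale (-3.59, SE 0.54, adjusted p = 0.00031) and 6.61-fold lower in the s-shaped body (-2.72, SE 0.54, adjusted p = 0.0018). Between the nephron structures the difference of 0.86 (SE 0.54, adjusted p = 0.24) did not pass. It did pass without renal vesicle replicate 2 (1.49, adjusted p = 0.035). A second Tbx3 probe set was dim, below the filter, and gave only -0.12 and -0.29 against the duct. The large difference is thus seen with 1 of 2 probe sets. The mean of both gave -1.85 and -1.51 against the duct, still called.

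Tbx2 was low in the renal vesicle alone. Its levels were 10.14, 10.03 and 10.02 in the s-shaped body and 10.15 and 10.32 in duct replicates 2 and 3, while duct replicate 1 was just below the s-shaped body arrays. The renal vesicle arrays, at 7.71, 8.81 and 6.13, lay below all of these. It was 6.09-fold lower in the vesicle than in the duct (-2.61, SE 0.47, adjusted p = 0.0012) and 5.70-fold higher in the s-shaped body than in the vesicle (2.51, SE 0.47, adjusted p = 0.0014). Against the duct the s-shaped body gave -0.10 (SE 0.47, adjusted p = 0.90). The spread in the vesicle (SD 1.35, n = 3) sets the size of these values. Without renal vesicle replicate 3 they were -1.89 and 1.80, and without replicate 2 they were -3.23 and 3.14, with all 4 still called. For Tbx3 against the duct the corresponding values were -2.71 and -4.20.

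Some duct genes were, like Tbx2 and Tbx3, highest in replicate 2 and lowest in replicate 3 of the renal vesicle, and others were not. Krt8, a keratin of simple epithelia, was at 9.91, 10.32 and 8.93 in vesicle replicates 1, 2 and 3 and at 14.25, 14.05 and 14.33 in the duct. Krt18, its partner keratin, followed at 9.75, 10.13 and 8.87. Foxa1 was lowest in replicate 1 (5.92, 6.85 and 6.36) and Krt19 was highest there (6.44, 6.36 and 5.08). The summed collecting duct markers were 9929, 13769 and 2587 in the same vesicle arrays, of which Calb1, near the floor in the duct, made up 6589, 9324 and 341. Without Calb1 they were 3339, 4445 and 2246. Podocyte markers ran the other way, at 3026, 2492 and 9878. The part that duct RNA plays in the vesicle levels of Tbx2 and Tbx3 was not tested. In the s-shaped body, where the Tbx2 levels overlapped with those of the duct, collecting duct markers summed to 1157 to 1210 and Krt8 stood at 8.30, 7.42 and 7.66. Stromal, mural and endothelial markers were high on those arrays, and their part in the Tbx2 level was not tested.

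**Figure D5:**
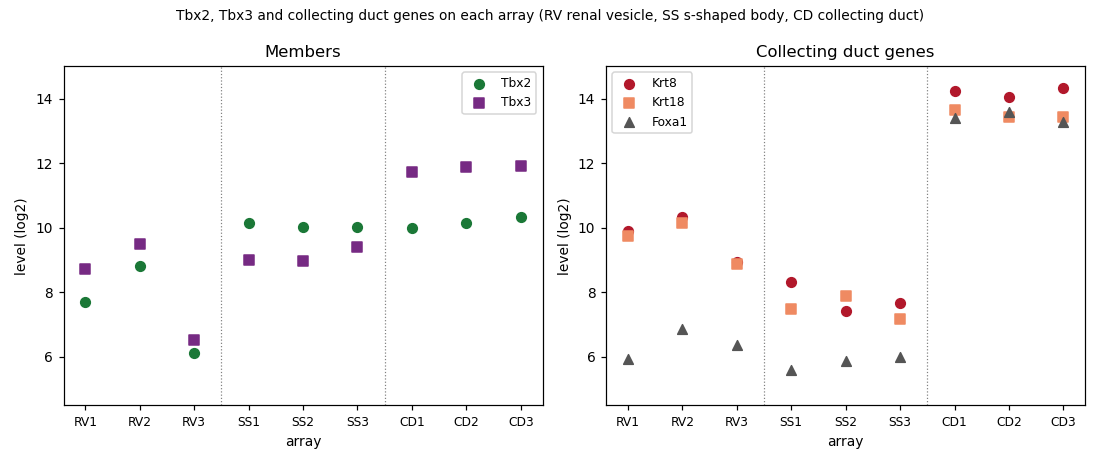
Levels (y axis, log2) of Tbx2 and Tbx3 (left) and of the duct genes Krt8, Krt18 and Foxa1 (right) on each of the 9 arrays. In the renal vesicle replicate 3 is lowest for Tbx2 (6.13), Tbx3 (6.52), Krt8 (8.93) and Krt18 (8.87) but not for Foxa1 (6.36), and in the s-shaped body Tbx2 stays near 10 while Krt8 is at 7.42 to 8.30.

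The genes next to them on the chromosome were dim. Tbx4 adjoins Tbx2 on chromosome 11 and Tbx5 adjoins Tbx3 on chromosome 5, with 0 protein-coding genes between. Both specify limbs in the mouse. Tbx4 lay between 5.30 and 6.76 and Tbx5 between 5.23 and 6.78 on all arrays, below every array median. The other 7 untested T-box members were Tbx1, Tbx6, Tbx15, Tbx18, Tbx19, Tbx20 and Tbx21, which with these ran from 4.88 to 7.44 and were not called without the filter. Tbx18, the ureter gene, was at 4.88 to 5.97. Of 3 T-box genes with other names on the array (from a list of Brachyury, Eomes, Tbr1 and Mga), 0 passed the filter.

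Gata5, known from heart and endoderm, rose in the s-shaped body. It was at 8.01, 7.65 and 8.52 there, against 6.0, 6.88 and 6.91 in the renal vesicle and 6.34, 5.46 and 6.84 in the duct. Only the s-shaped body arrays were above their array medians, so the gene passed the filter through them alone and its high level there was part of its selection. The gene was 2.76-fold higher than in the vesicle (1.47, SE 0.38, adjusted p = 0.0089) and 3.59-fold higher than in the duct (1.85, SE 0.38, adjusted p = 0.0022). In the limma fit without the filter the adjusted p were 0.018 and 0.0052. Duct intensities of 22.2 to 103 lie near the pseudocount, and the difference from the duct ran from 2.20 (pseudocount 8) to 1.42 (pseudocount 64). Its other probe set was below the filter and gave 0.14 and 0.38, so the rise is seen with 1 of 2 probe sets. In the mean of both the differences were 0.80 and 1.11, still called.

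Gata4, of heart and gonad, was slightly lower in the s-shaped body (7.32, 7.24 and 7.09) than in the duct (7.83, 7.88 and 7.87), by 0.64 on the log2 scale (-0.64, SE 0.21, adjusted p = 0.031). That call was lost without any 1 array of either structure, with -0.69 to -0.58 and adjusted p of 0.052 to 0.094. It was also lost in the limma fit without the filter (adjusted p = 0.051). The renal vesicle overlapped with the duct (7.46, 8.05 and 7.41). The other Gata4 probe set was below the filter and gave 0.015 for s-shaped body against duct. Gata6, of endoderm and heart, failed the filter with 7.27, 7.32 and 7.45 in the duct, 6.51, 6.61 and 6.18 in the vesicle and 6.96, 6.80 and 7.03 in the s-shaped body. Without the filter it was lower in the vesicle than in the duct (-0.92, SE 0.19, adjusted p = 0.0062). Its other probe set, also below the filter, gave 0.13.

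Gata1, the erythroid factor, was at 7.20, 7.55 and 7.16 in the s-shaped body and 6.47, 6.80 and 6.71 in the renal vesicle, without overlap. It failed the filter, and without it the difference of 0.64 had an adjusted p of 0.058. On the same arrays 4 of 5 tested erythroid markers were higher in the s-shaped body than in the vesicle and 0 were lower. GATA cofactors and other GATA-finger genes gave 6 higher and 0 lower of 11 tested in that comparison (median 0.58), where 18.5% of all genes were higher and 17.8% lower. They gave 4 and 2 in s-shaped body against duct (median 0.14, with 16.9% and 15.9%) and 1 and 3 in renal vesicle against duct (median -0.11, with 15.6% and 15.9%). Lmo2, a bridge protein of erythroid and endothelial GATA complexes, was higher by 3.55 (SE 0.41) in the s-shaped body than in the vesicle, and Zfpm1, which encodes the GATA partner FOG1, by 0.87 (SE 0.20). Lmo4, a related bridge protein, was lower in both nephron structures than in the duct (-2.52 and -2.55, SE 0.17).

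The 9 omitted relatives passed the filter without exception, where 20 of the 58 members and 7998 of all 12393 genes did. Against the duct 3 were higher and 4 lower in the vesicle (-7.04 to 4.96), with 15.6% and 15.9% of all genes tested. In the s-shaped body 6 were higher and 2 lower (-7.60 to 5.69), with 16.9% and 15.9%. Between s-shaped body and vesicle 8 were higher and 0 lower (-0.55 to 6.22), with 18.5% and 17.8%.

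The start regions of members that differed between s-shaped body and renal vesicle arrays are printed to show what surrounds the starts of these genes. RefSeq windows on build GRCm38.p6, from 250 bases before to 50 bases after the annotated start, were at hand for 38 of the 58 members and for 4 of these 5 genes, Tbx2 being the other. Each is given 5′ to 3′ on the strand of the gene. Capitals mark exact matches, on either strand, to the GC box letters GGGCGG, the CCAAT box letters CCAAT, the TATA box letters TATAAA, the forkhead letters TGTTTAC, the SOX letters ACAATG, the GATA letters TGATAA or the T-box letters AGGTGTGA.
Sox11, chr12:27342669-27342968, minus strand: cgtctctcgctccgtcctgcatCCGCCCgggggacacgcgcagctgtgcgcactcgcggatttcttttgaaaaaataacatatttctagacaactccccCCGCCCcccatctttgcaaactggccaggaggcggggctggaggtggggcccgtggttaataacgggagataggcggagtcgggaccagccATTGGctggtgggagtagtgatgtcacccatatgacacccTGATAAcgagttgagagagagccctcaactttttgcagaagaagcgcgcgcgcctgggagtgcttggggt
Foxo1, chr3:52268087-52268386, plus strand: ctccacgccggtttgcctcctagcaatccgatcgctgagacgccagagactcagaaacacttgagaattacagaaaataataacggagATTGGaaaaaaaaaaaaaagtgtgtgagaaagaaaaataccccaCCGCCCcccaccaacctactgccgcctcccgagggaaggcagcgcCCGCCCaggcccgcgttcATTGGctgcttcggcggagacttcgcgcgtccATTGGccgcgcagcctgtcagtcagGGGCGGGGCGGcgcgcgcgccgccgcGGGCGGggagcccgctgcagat
Sox13, chr1:133424163-133424462, minus strand: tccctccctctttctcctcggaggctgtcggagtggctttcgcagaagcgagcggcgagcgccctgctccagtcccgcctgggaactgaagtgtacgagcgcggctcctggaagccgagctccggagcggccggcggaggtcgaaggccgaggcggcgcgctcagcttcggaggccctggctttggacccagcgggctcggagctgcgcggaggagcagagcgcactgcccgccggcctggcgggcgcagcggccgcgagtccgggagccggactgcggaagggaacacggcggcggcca
Gata5, chr2:180334630-180334929, minus strand: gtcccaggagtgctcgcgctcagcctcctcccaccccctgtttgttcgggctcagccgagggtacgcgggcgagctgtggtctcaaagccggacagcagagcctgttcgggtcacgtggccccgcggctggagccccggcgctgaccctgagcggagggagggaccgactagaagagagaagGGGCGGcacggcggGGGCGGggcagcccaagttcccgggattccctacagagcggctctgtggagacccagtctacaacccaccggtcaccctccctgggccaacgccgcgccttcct

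These windows were rich in G and C, at 58.7% in Sox11, 61.3% in Foxo1, 69.7% in Gata5 and 73.3% in Sox13, where the median of 32851 windows was 52.7%. Sox11, the gene that fell, held 2 GC boxes, 1 CCAAT box and 1 GATA match. Foxo1 held 5 GC boxes, 2 of them sharing a base, and 3 CCAAT boxes, Gata5 held 2 GC boxes, and Sox13 held none of the 7 motifs. Of all windows 35.7% held a GC box, 37.4% a CCAAT box, 13.6% a TATA box and 9.05% the GATA letters. The forkhead, SOX and T-box letters, found in 3.65%, 12.6% and 1.28% of all windows, were in 0 of these 4. A match is a run of letters, not a shown binding site.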

How the data were processed

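The deposited table held intensity values on a linear scale, 1 per probe set and array, for 22690 probe sets and 9 arrays (3 per structure). Per the submitters' processing notes the authors used GCOS, without a stated version or algorithm. The trimmed mean (without the top and bottom 2%) was between 500.2 and 500.3 on each array, so the values had been scaled. No detection calls, scan dates or genome build were given, and the number of arrays limits the precision. Array medians were 112.2 to 144.8.

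A pseudocount of 26 (the 20th percentile) was added before log2, which understates the folds of dim genes, and arrays were quantile normalized. Probe sets above their array median on at least 3 arrays were kept, and each gene took the one with the highest mean. Two-sided tests used limma 3.58.1 under R 4.3.3 (one fit of all 9 arrays by lmFit and eBayes with a trend, 6 residual degrees of freedom, Benjamini-Hochberg over 7998 genes per comparison). The procedure was tested on simulated data. Members' symbols come from the 2016 platform annotation, and all 58 identifiers matched RefSeq without change.

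Members, gene lists (textbook knowledge) and alternatives were chosen with earlier results of these data known, so no list was tested as a set. Every member may be named: called members and those above log2 10 in a structure with their values, others mostly as ranges, and of the other lists a few genes with small adjusted p. Genes that make up a count of 1 were named after their values were seen. Alternatives changed the pseudocount, normalization, filter, probe set rule, variance model and arrays used.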

Additional observations from a re-analysis of the deposited data

Results flagged for a closer look

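Sox11 was marked because its differences from the collecting duct had opposite signs in the nephron structures and the difference between them was itself past the threshold. It was higher than the duct in the renal vesicle (1.14) and lower in the s-shaped body (-1.66), a difference of -2.80 (SE 0.20, adjusted p = 9.5e-07 in limma, n = 3 arrays per structure). Each structure's 3 arrays were separate from those of the others, and the gene has 1 probe set.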

How the results depend on the processing

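Of 24 called member differences, none changed sign under another pseudocount, normalization, filter, variance model, array weights, the mean of all probe sets, the replicate block or the omission of arrays. Of 498 such values 465 kept the call and 33 lost it, all in Foxk2, Foxo1, Gata4, Sox4 and Sox9. Tested probe set by probe set, an alternative chosen after seeing the data, Foxk2 in renal vesicle against duct turned to -0.065 and -0.050, and Sox4 to 0.215 and 0.454 against the duct (renal vesicle, then s-shaped body). With the values of other probe sets added, 476 of 521 kept the call, 41 lost it and these 4 changed sign. Further calls lost by probe set were in Foxo1, Foxp1 and Sox4.

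Requiring a 2-fold change left 3 of 6 lower members in renal vesicle against duct and 4 of 7 in s-shaped body against duct. Array weights, whose iteration stopped short of its tolerance, gave 7 higher members instead of 3 in s-shaped body against duct. Between the nephron structures, 1 lower member became 2 with median centring, the mean of all probe sets, only the 2 groups compared or the replicate block, and 4 with array weights. Leaving out 1 array gave 2 to 3 higher and 4 to 6 lower in renal vesicle against duct, 3 to 3 and 4 to 7 in s-shaped body against duct, and 4 to 5 and 1 to 2 between the nephron structures. The lowest value of 4 came without s-shaped body replicate 2 (s-shaped body against duct). Where not stated above, the cause was not tested.

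Arrays of the same number correlated at -0.034 to 0.161 (median 0.106) in their deviations from the group means, and arrays of different numbers at -0.155 to 0.149 (median -0.026). The replicate 3 arrays correlated at 0.116 to 0.130, but not every same-number pair was over 0.1 and renal vesicle 1 correlated best with s-shaped body 2. The labels give the numbers no meaning, so they were not used as pairs. The replicate block changed no other count. With median centring the median of all genes moved to 0.11 (renal vesicle against duct) and -0.11 (between the nephron structures), and 59.9% and 43.6% of calls were higher, against 49.6% and 51.0%.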
